A study of Mus musculus with 20 samples.

Results

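Regulatory T cells (Tregs) and CD8+ T cells were compared before any cytokine had been added. The comparison took every library whose label gives a time of 0 h, which is 3 replicate Treg libraries and 1 CD8+ T cell library, or 4 of the 20 libraries of the series. The study exposed both cell types to IL-2 or to the IL-2 variant IL-2-REH, a partial agonist, and measured mRNA by RNA-seq. The other 16 libraries, 12 of Tregs and 4 of CD8+ T cells, came from cells given 200 nM of either cytokine for 90 min or 4 hr, and are used here to estimate the spread between libraries and to see whether a difference found at 0 h recurred. All cells came from mouse spleen and lymph node. Tregs were taken from B6-Foxp3EGFP mice, in which EGFP reports Foxp3, by enriching CD4+ T cells with a kit and then sorting for GFP. CD8+ T cells were taken from C57BL/6J mice by kit enrichment with no sort, while the strain entry reads C57BL/6N for every sample. The cell type, the mouse stock and the way the cells were isolated change together in these libraries and cannot be told apart. The study's list of materials gives both mouse stocks as female. Age at isolation and whether a replicate is 1 animal or a pool are not given in the sources used here, so p-values measure only the spread between libraries.

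Tregs are CD4+ T cells that restrain the responses of other T cells, and their identity depends on the transcription factor Foxp3. They carry the high-affinity IL-2 receptor at rest, because IL-2Rα (Il2ra) is present beside IL-2Rβ (Il2rb) and the common γ chain (Il2rg), and they consume IL-2 made by other cells. CD8+ T cells recognise peptides on MHC class I with the help of the CD8αβ co-receptor, can become cytotoxic, and carry little IL-2Rα until they are activated. In both cell types IL-2 acts through JAK1 and JAK3, which phosphorylate STAT5, and Cish and Socs genes are feedback targets of STAT5.

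The 4 libraries had 39933483 to 51867572 reads on genes, which was 64.5% to 71.1% of their mapped reads. The library labelled Treg replicate 1 stood apart from the other unstimulated Tregs. Among 10602 genes with a mean level of at least 1 RPKM (reads per kilobase of transcript scaled to the mapped reads of the library), 17.7% differed more than 2-fold between Treg replicates 1 and 2 and 12.8% between replicates 1 and 3, but only 1.5% between replicates 2 and 3. Against the CD8+ T cell library the share was 21.3%, 10.7% and 9.25% for Treg replicates 1, 2 and 3. Replicates 2 and 3 thus differed from replicate 1 at more genes than from the CD8+ T cells. On log2(RPKM + 1) values, the root mean square difference of replicate 1 to the other unstimulated Tregs was 0.726 to 0.789. To the 6 Treg libraries given cytokine for 90 min it was 0.358 to 0.501. In replicate 1, Stat5a, a transcription factor gene of the pathway, was at 145 RPKM, against 29.8 and 24.2 RPKM in replicates 2 and 3. In the 12 treated Treg libraries it was at 74.4 to 143 RPKM. Cish and Socs2 of replicate 1 were instead below the treated Tregs, at 54.7 RPKM against 85.9 to 262 RPKM and 6.51 RPKM against 19.04 to 48.9 RPKM. Results are therefore given with and without this library where it decides them.

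**Figure D1:**
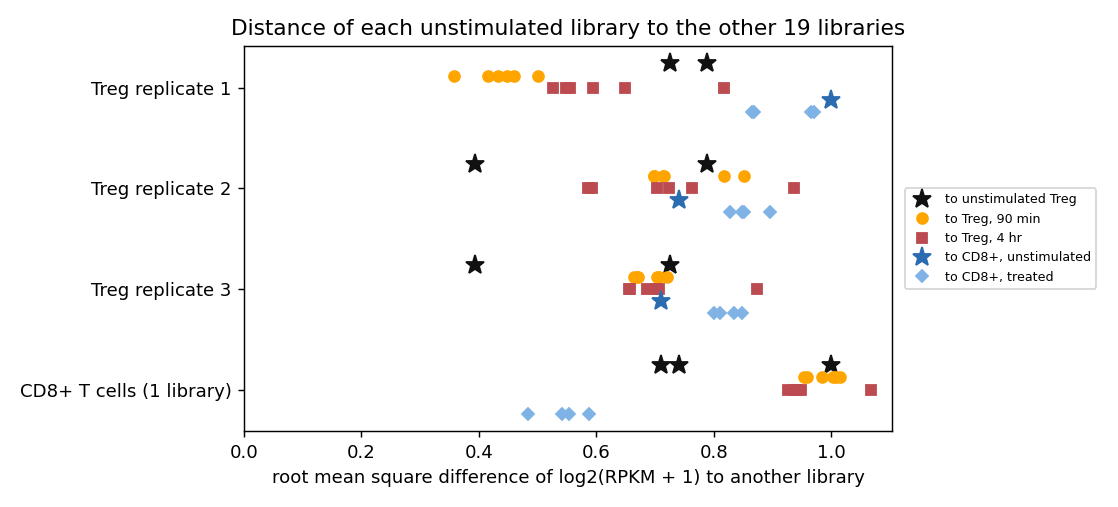
Root mean square difference in log2(RPKM + 1) between each unstimulated library (rows) and the other 19 libraries, with marker shape and colour giving the cell type and treatment of the other library. Treg replicate 1 lies closest to Treg libraries given cytokine for 90 min (0.358 to 0.501), whereas replicates 2 and 3 lie closest to each other (0.394). Replicates 2 and 3 lie nearer to the unstimulated CD8+ T cell library (0.74 and 0.711) than to Treg replicate 1 (0.789 and 0.726).

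Sex-linked genes and markers of other cells also varied between libraries. Xist, expressed from the inactive X chromosome of females, was at 65.2 RPKM in Treg replicate 2 and at 0.044, 0.0119 and 0.0136 RPKM in Treg replicates 1 and 3 and the CD8+ T cells. The Y-linked gene Ddx3y showed the reverse, at 0.00295 RPKM in Treg replicate 2 and at 44.6, 27.3 and 19.97 RPKM in the other 3, which goes against the female stocks listed for the study in 3 of the 4 libraries. Treg replicate 3 had more RNA of neutrophil and erythroid genes, with S100a8 at 58.7 RPKM and Hbb-bs at 69.0 RPKM, against at most 0.698 and 4.10 RPKM in the other 3 libraries. The summed level of 16 B cell markers was 51.8, 59.4 and 118 RPKM in the Tregs and 63.0 RPKM in the CD8+ T cells, that of 19 macrophage and myeloid markers was 31.1, 165.5, 249 and 83.1 RPKM in the same order, and that of 10 dendritic cell markers was 26.8, 37.0, 30.3 and 45.02 RPKM. The 12 erythroid and platelet markers summed to 11.8, 24.9 and 263 RPKM in the Tregs and 21.0 RPKM in the CD8+ T cells. Of the 57 genes in these 4 lists, 0 were called in the edgeR test described next, 4 had an unadjusted p under 0.05, and 1, the platelet gene Ppbp, was called by DESeq2. Their part in the differences below was not tested.

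Of 16399 genes with enough reads, 780 (4.76%) differed between unstimulated Tregs and CD8+ T cells. Higher levels in Tregs were found for 555 genes (3.38%), with a median log2 difference of 3.34, and lower levels for 225 genes (1.37%), with a median size of 2.28. Of the 555, 30 had 0 reads in the CD8+ T cell library, and 1 of the 225 had 0 reads in the Treg libraries. The size of those differences is not resolved. The median log2 difference over all tested genes was 0.11, and it was 0.002 among tested genes with a mean of at least 1 RPKM. Differences were called at an adjusted p under 0.05 in edgeR's quasi-likelihood test, fitted to all 20 libraries. Because there was a single unstimulated CD8+ T cell library, that library was assumed to vary as the replicated Treg groups do, and with only 3 libraries against 1 an exact permutation test cannot give a p below 0.25. Requiring also a log2 difference above 1 left 770 genes (4.7%), 553 higher (3.37%) and 217 lower (1.32%). The same test fitted to the 4 unstimulated libraries alone called 0 genes, with 1619 at an unadjusted p under 0.05, whereas DESeq2 on those 4 called 857. In simulated counts, the fit to 20 libraries recovered 0% of 94 genes given a log2 change of 1 and 27.6% of 98 given 2. So few changed genes gave only 30 calls, against 780 in the data. The adjusted threshold was thus stricter in the simulation, and these shares need not hold for the data. A gene that was not called is in any case not shown to be equal in the cell types.

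All 555 genes called higher had each Treg library above the CD8+ T cell library, and all 225 called lower had each below. The calls were made on these same libraries, so this only describes them and is no separate support. A rule without a test gave a second list, which overlapped the first only in part. Every Treg library had to lie more than 2-fold from the CD8+ T cell library on RPKM + 1. It was met by 609 of 23992 genes (2.54%), 418 in the upward direction (1.74%) and 191 downward (0.796%), including 310 of the 555 and 131 of the 225 genes above. Leaving out the library labelled Treg replicate 1 gave 595 higher and 200 lower genes, of which 509 and 173 were among those called with it. Among the 780 genes, 54 carried predicted-gene or clone names.

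**Figure D2:**
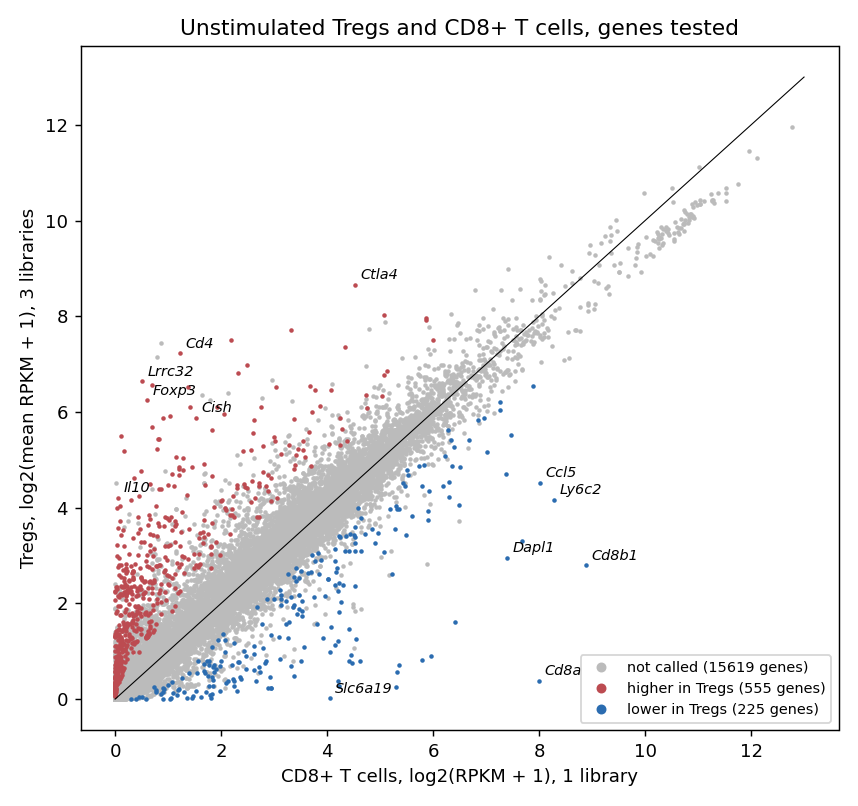
Levels of the 16399 tested genes in unstimulated CD8+ T cells (1 library, x axis) and Tregs (mean of 3 libraries, y axis), both as log2(RPKM + 1), with the line of equal levels. The 555 genes called higher in Tregs lie above the line and the 225 called lower lie below it, with Cd8a and Slc6a19 near 0 in Tregs and Foxp3 and Lrrc32 near 0 in CD8+ T cells.

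The genes that define the 2 cell types matched their labels. Foxp3 (NM_001199347, chrX:7579676-7595243, plus strand, GRCm38) was at 67.0, 92.8 and 65.2 RPKM in the 3 Treg libraries and 0.518 RPKM in the CD8+ T cells. Every Treg library was far above the CD8+ T cells, by a log2 difference of 7.05 ± 0.54 (SE, adjusted p = 2.99e-06), and the CD8+ T cell level was 0.691% of the Treg mean. Foxp3 overlaps the annotated genes Ccdc22 and Flicr, and reads from overlapping genes could not be separated here. Cd4 (NM_013488, chr6:124864693-124888247, minus strand), the co-receptor for MHC class II, was at 129, 168 and 148 RPKM in Tregs and 1.33 RPKM in CD8+ T cells, a log2 difference of 6.68 ± 0.36 (adjusted p = 1.9e-07).

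The CD8 co-receptor genes, which lie next to each other, gave the opposite pattern. Cd8a (NM_001081110, chr6:71373427-71379171, plus strand) was at 0.103, 0.188 and 0.626 RPKM in Tregs and 256 RPKM in CD8+ T cells, a log2 difference of -9.82 ± 1.35 (adjusted p = 0.000598), or -10.96 without Treg replicate 3, the Treg library with the highest level. Cd8b1 (NM_009858, chr6:71322788-71337492, plus strand) was at 6.00, 5.59 and 6.33 RPKM in Tregs and 472 RPKM in CD8+ T cells, a log2 difference of -6.40 ± 0.33 (adjusted p = 1.57e-07). The Treg mean was thus 0.12% of the CD8+ T cell level for Cd8a but 1.26% for Cd8b1. In the treated libraries the ranges were likewise apart, at 0.0879 to 1.84 RPKM of Cd8a and 4.25 to 10.8 RPKM of Cd8b1 in Tregs, against 103 to 203 RPKM and 179 to 290 RPKM in CD8+ T cells. The CD3 subunit genes Cd3e, Cd3d and Cd3g, shared by all T cells, were between 127 and 299 RPKM in all 4 libraries and were not called.

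**Figure D3:**
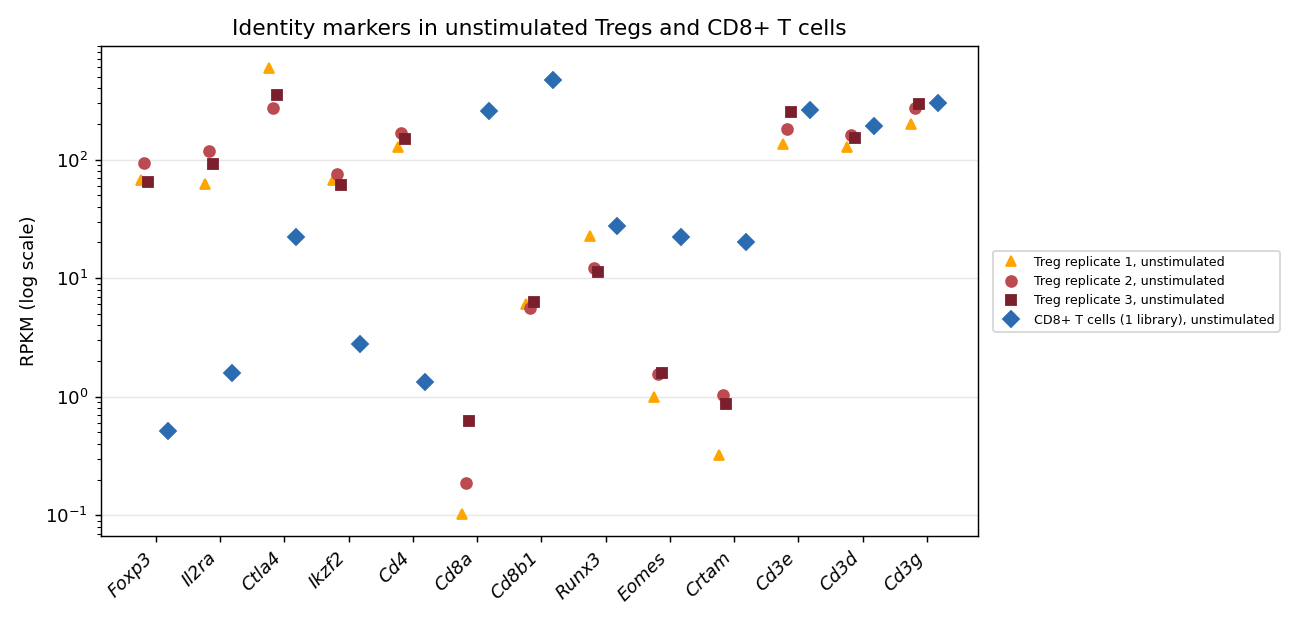
RPKM (log axis) of 13 identity markers in the 3 unstimulated Treg libraries and the 1 CD8+ T cell library, each point being 1 library. Foxp3, Il2ra, Ctla4, Ikzf2 and Cd4 are higher in every Treg library, Cd8a, Cd8b1, Eomes and Crtam are higher in the CD8+ T cells, and the 3 Cd3 genes lie close together.

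The 250 bases before the first RefSeq start of 5 genes are shown (GRCm38.p6, gene strand), because these genes mark each cell type or differed together. Capitals mark TTCNNNGAA, a core of STAT binding sites that reads the same on both strands, and TGTGGT or its complement ACCACA, a RUNX core.
Foxp3, higher in Tregs, chrX:7579426-7579675: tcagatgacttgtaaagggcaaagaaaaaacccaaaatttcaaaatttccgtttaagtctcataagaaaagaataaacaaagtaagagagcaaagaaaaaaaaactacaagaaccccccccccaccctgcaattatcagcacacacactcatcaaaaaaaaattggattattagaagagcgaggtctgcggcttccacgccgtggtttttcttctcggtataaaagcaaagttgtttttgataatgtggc
Tnfrsf18, higher in Tregs, chr4:156026072-156026321: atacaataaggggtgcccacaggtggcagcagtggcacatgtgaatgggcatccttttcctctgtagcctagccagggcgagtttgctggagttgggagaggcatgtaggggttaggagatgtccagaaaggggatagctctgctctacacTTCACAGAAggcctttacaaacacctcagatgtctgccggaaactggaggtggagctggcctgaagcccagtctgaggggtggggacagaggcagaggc
Cd8a, lower in Tregs, chr6:71373177-71373426: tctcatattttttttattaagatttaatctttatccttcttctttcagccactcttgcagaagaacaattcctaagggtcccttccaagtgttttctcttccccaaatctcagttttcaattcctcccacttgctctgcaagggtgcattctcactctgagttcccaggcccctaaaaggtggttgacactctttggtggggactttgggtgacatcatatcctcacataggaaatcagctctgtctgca
Nkg7, lower in Tregs, chr7:43436888-43437137: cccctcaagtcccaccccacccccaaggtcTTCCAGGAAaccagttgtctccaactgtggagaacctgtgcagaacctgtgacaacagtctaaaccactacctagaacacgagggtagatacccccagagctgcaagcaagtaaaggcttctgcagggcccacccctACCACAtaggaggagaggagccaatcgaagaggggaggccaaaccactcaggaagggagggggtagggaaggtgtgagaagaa
Gzmm, lower in Tregs, chr10:79688770-79689019: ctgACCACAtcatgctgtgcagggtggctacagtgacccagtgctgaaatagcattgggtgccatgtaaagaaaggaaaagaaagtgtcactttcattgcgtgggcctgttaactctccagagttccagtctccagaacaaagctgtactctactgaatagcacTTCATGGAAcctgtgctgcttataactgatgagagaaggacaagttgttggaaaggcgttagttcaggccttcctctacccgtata
TTCNNNGAA was in 1 place in the windows of Tnfrsf18, Nkg7 and Gzmm, and TGTGGT or its complement was in 1 place in those of Nkg7 and Gzmm. Over all windows, TTCNNNGAA occurred in 8.18% of the 391 genes called higher that had a window, in 7.19% of those called lower and in 7.39% of 11800 tested genes. TGTGGT or its complement occurred in 12%, 15.6% and 13.6% in the same order. A match is only a run of letters, and no binding was measured.

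Genes of Treg lineage and suppression were mostly higher in Tregs. Of 34 listed genes, 29 were called higher and 0 lower (background, 3.38% and 1.37% of all genes), and their median log2 difference was 4.52, against 0.11 over all tested genes. Without the library labelled Treg replicate 1, the count was 30. This list and those below were chosen with earlier results of these data known, and the Tregs were sorted for a reporter of Foxp3. The counts set beside the background therefore describe the lists and are no separate support. Ikzf2, encoding the Ikaros family factor Helios, was at 67.2, 76.1 and 61.4 RPKM in Tregs and 2.78 RPKM in CD8+ T cells, a log2 difference of 4.51 ± 0.49 (adjusted p = 0.000118). Ikzf4, encoding Eos, was at 21.9, 23.1 and 19.99 RPKM against 0.578 RPKM, a log2 difference of 5.12 ± 0.34 (adjusted p = 1.16e-06). These 2 genes varied little between Treg libraries, while the other 3 members of the family, Ikzf1, Ikzf3 and Ikzf5, were not called. Ikzf1, which encodes Ikaros itself, was at 41.2, 80.3 and 72.8 RPKM against 116 RPKM.

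Surface molecules of suppression had the highest levels. Ctla4, an inhibitory receptor that competes with CD28 for its ligands, was at 589, 273 and 351 RPKM in Tregs and 22.1 RPKM in CD8+ T cells, a log2 difference of 4.13 ± 0.72 (adjusted p = 0.00354). Lrrc32, encoding GARP, which holds latent TGF-β at the cell surface, was at 153, 83.4 and 61.8 RPKM against 0.431 RPKM, a log2 difference of 7.78 ± 0.70 (adjusted p = 2.13e-05), or 7.19 without replicate 1. Both were thus highest in the library labelled replicate 1. Nrp1 and Gpr83 were instead lowest in that library, with Nrp1 at 15.02, 43.2 and 50.7 RPKM against 0.737 RPKM, and Gpr83 at 6.00, 53.4 and 37.5 RPKM against 1.23 RPKM. Both were still called, with log2 differences of 5.48 ± 0.63 and 4.53 ± 0.88. Izumo1r, encoding folate receptor 4, was at 130, 258.6 and 236 RPKM against 8.96 RPKM, a log2 difference of 4.40 ± 0.52. The 5 listed genes that were not called were Itgae, Tgfb1, Il1rl1, Klrg1 and Gpr15. Il1rl1 was just above the threshold, at 28.55, 4.50 and 2.41 RPKM against 0.356 RPKM (log2 difference 5.05 ± 1.38, adjusted p = 0.0521). It was called whichever Treg library was left out (adjusted p = 0.0151 to 0.0281). Tgfb1 was at 98.5, 75.4 and 55.5 RPKM against 34.3 RPKM (adjusted p = 0.169), and Itgae, encoding CD103, was at 16.1, 23.1 and 27.9 RPKM against 26.3 RPKM (adjusted p = 0.817).

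Some genes of the Treg list, among them Il10, Areg, Ccr8 and Penk, had few reads in the CD8+ T cell library. Il10, encoding the anti-inflammatory cytokine IL-10, was at 27.1, 8.59 and 16.8 RPKM in Tregs and 0.0374 RPKM in CD8+ T cells. The CD8+ T cell level rested on 3 reads, and the ratio of 468 has a 95% Poisson interval of 160 to 2270. Areg, encoding the growth factor amphiregulin, was at 33, 3.12 and 9.002 RPKM against 0.0272 RPKM, or 2 reads, with a ratio of 554 and an interval of 153 to 4570. These intervals cover counting error only. The fitted log2 difference of Areg was 9.03, or 7.59 without replicate 1, and with so few reads in the CD8+ T cells its rank among the genes higher in Tregs is uncertain. Ccr8, a chemokine receptor gene, was at 89.1, 21.1 and 22.9 RPKM against 0.0845 RPKM, a log2 difference of 8.98 ± 1.35 (adjusted p = 0.00117), or 7.81 without replicate 1. Penk, encoding proenkephalin, was at 64.1, 23.5 and 18.8 RPKM against 0.127 RPKM, a log2 difference of 8.07 ± 1.10, or 7.17 without replicate 1. Each of Areg, Ccr8 and Penk was highest in the library labelled replicate 1. Every Treg library was above the CD8+ T cells, as for all genes called higher.

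The 15 genes with the largest differences upward, among those with a Treg mean of at least 5 RPKM, also held genes outside the Treg list. Itgb8, an integrin subunit that activates TGF-β, was at 18.3, 8.02 and 6.23 RPKM against 0.0421 RPKM (log2 difference 7.94 ± 1.24, or 7.18 without replicate 1). Il1r2, the decoy receptor for IL-1, was at 30.1, 7.75 and 8.53 RPKM against 0.0606 RPKM (7.93 ± 1.20, or 6.86 without replicate 1). Gdpd3, a glycerophosphodiester phosphodiesterase, was at 141, 64.2 and 75.7 RPKM against 0.625 RPKM (7.16 ± 0.90). Map6 and Tox2 varied less between Treg libraries. Map6, a microtubule-associated protein gene, was at 5.06, 8.06 and 4.90 RPKM against 0.0474 RPKM (6.83 ± 0.41), and Tox2, a transcription factor gene, was at 5.41, 8.004 and 6.74 RPKM against 0.0583 RPKM (6.69 ± 0.61). Ptpn5, Plagl1 (itself a member of the Treg list) and Tmem158 were highest in replicate 1, at 18.5, 30.6 and 10.6 RPKM. In replicates 2 and 3 they were at 3.63 and 2.75, 3.79 and 2.12, and 4.67 and 2.17 RPKM. Without replicate 1 their log2 differences went from 8.27, 7.48 and 7.18 to 6.70, 5.22 and 6.24, and all 3 were still called. Apol9b was at 4.00, 8.74 and 8.16 RPKM against 0.0316 RPKM, which rested on 3 reads.

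Part of the CD8 lineage and cytotoxic genes were lower in Tregs. Of 25 listed genes, 0 were called higher and 11 lower (background, 3.38% and 1.37%), while 14 were not called. Their median log2 difference, over all 25, was -3.11. Without Treg replicate 1 the count called lower was 12. By the fold rule on RPKM + 1, 18 lay more than 2-fold lower in every Treg library, against 0.796% of all 23992 genes. Eomes, a transcription factor of memory CD8+ T cells, was at 0.992, 1.56 and 1.58 RPKM in Tregs and 22.4 RPKM in CD8+ T cells, a log2 difference of -4.15 ± 0.63 (adjusted p = 0.00132). Tbx21, encoding T-bet, was at 1.95, 3.12 and 2.19 RPKM against 9.86 RPKM, a log2 difference of -2.16 ± 0.41. Crtam, an adhesion receptor of cytotoxic cells, was at 0.324, 1.03 and 0.865 RPKM against 20.2 RPKM, a log2 difference of -4.92 ± 0.49. For these 3 genes, as for every gene called lower, each Treg library was below the CD8+ T cell library, which is no separate support.

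Among genes of the cytotoxic granule and of chemokines, some were called lower in Tregs and others were not. Nkg7, a granule membrane protein gene whose promoter window is shown above, was at 3.09, 14.2 and 9.47 RPKM in Tregs and 204 RPKM in CD8+ T cells, a log2 difference of -4.69 ± 0.79. Gzmm, encoding granzyme M, was at 0.576, 0.533 and 0.768 RPKM against 8.97 RPKM, a log2 difference of -3.94 ± 0.50. Ccl5, a chemokine gene of memory T cells, was at 14.4, 30.2 and 21.5 RPKM against 258.5 RPKM, a log2 difference of -3.70 ± 0.53. Gzma, Prf1, Ifng and Gzmb were not called. Gzma, encoding granzyme A, was at 0.421, 8.38 and 6.26 RPKM against 35.1 RPKM (adjusted p = 0.409), and Gzmb was at 9.03, 4.24 and 4.39 RPKM against 8.19 RPKM (adjusted p = 0.83). Runx3, a factor of the CD8 lineage, was at 22.6, 12.2 and 11.3 RPKM against 27.6 RPKM and was not called, but was when replicate 1 was left out (adjusted p = 0.307 with it and 0.0162 without). Several of these genes are also expressed by natural killer (NK) cells. The 10 NK cell markers summed to 5.15, 43.4 and 28.5 RPKM in Tregs and 104 RPKM in CD8+ T cells, the defining marker Ncr1 was at 0.022, 1.69, 1.12 and 3.99 RPKM in the same order, and 1 of the 10, Klra7, was called lower in Tregs (1.37% over all genes). The part of NK cells in these differences was not tested.

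Among the named genes that were called, Slc6a19 (NM_028878, chr13:73679745-73700780, minus strand), encoding a transporter of neutral amino acids, had the largest difference. It had 1, 2 and 4 reads in the Treg libraries and 2341 in the CD8+ T cells, which is 0.0066, 0.0112 and 0.027 RPKM against 15.6 RPKM. The CD8+ T cell level was 1050 times the Treg mean, with a 95% Poisson interval of 507 to 2600 for the 7 Treg reads. The fitted log2 difference was -10.10, or -10.80 without Treg replicate 3 (adjusted p = 2.29e-06 and 1.7e-05). In the treated libraries it was at 0 to 0.115 RPKM in Tregs and 15.1 to 31.1 RPKM in CD8+ T cells. Slc6a19 overlaps the antisense gene Slc6a19os, and the strand setting of the counting is not given in the sources used here. Lcn4, a lipocalin gene, was at 0.0208, 0.230 and 0.340 RPKM against 38.3 RPKM (log2 difference -7.72 ± 0.94, or -8.41 without replicate 3). Haao, an enzyme of tryptophan breakdown, was at 0.0263, 0.325 and 0.296 RPKM against 17.7 RPKM (-6.51 ± 1.36). Ggt1, an enzyme of glutathione metabolism, was at 0.159, 0.427 and 0.293 RPKM against 17.5 RPKM (-6.04 ± 0.96). Lcn4, Haao and Ggt1 were lowest in the library labelled Treg replicate 1.

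Members of the Ly49 (Klra) receptor family made up a group among the genes that were lowest in Tregs. Of 21 Klra genes tested, 7 were called lower in Tregs and 0 higher (1.37% and 3.38% over all genes). Klra7, encoding Ly49G, was at 0.1796, 1.27 and 0.735 RPKM against 23.6 RPKM, a log2 difference of -5.19 ± 1.06 (adjusted p = 0.00977), or -5.78 without replicate 2. Klra13-ps, Klra23 and Klra12 had 3078, 3129 and 2121 reads in the CD8+ T cells and 6 reads each in Treg replicate 1, and Klra6 and Klra19 had 461 and 453. Ly49 genes are near-identical copies, Klra23, Klra12 and Klra19 had no match in the annotation used here, and rows with such close counts may hold the same reads, so these values are uncertain and the 7 calls need not be 7 separate genes. The calls of Klra13-ps, Klra23 and Klra12 were lost whichever Treg library was left out (adjusted p = 0.0515 to 0.0758), and those of Klra6 and Klra19 were lost without replicate 1 or 3 (0.0507 to 0.0522). Klrd1, encoding CD94, was at 0.446, 3.62 and 2.11 RPKM against 84.8 RPKM, a log2 difference of -5.55 ± 1.08, or -6.15 without replicate 2.

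Part of the CD4 helper lineage genes were higher in Tregs. Of 13 tested, 5 were called higher and 0 lower (3.38% and 1.37% over all genes), with a median log2 difference of 2.82. Besides Cd4, these were Zbtb7b, Gata3, Maf and Ptpn13. Zbtb7b, encoding ThPOK, which commits thymocytes to the CD4 lineage, was at 6.89, 50.04 and 38.5 RPKM in Tregs and 1.44 RPKM in CD8+ T cells, a log2 difference of 4.29 ± 0.76. It was lowest in the library labelled replicate 1. Maf, a factor of IL-10-producing T cells, was at 58.5, 36.4 and 31.7 RPKM against 0.760 RPKM (5.72 ± 0.63), and Gata3 was at 33.6, 39.1 and 36.0 RPKM against 9.89 RPKM (1.76 ± 0.38). Cd40lg and Rora were among the 8 not called, at 17.3, 17.5 and 17.8 RPKM against 1.54 RPKM (adjusted p = 0.218) and at 33.8, 8.26 and 8.16 RPKM against 2.90 RPKM (adjusted p = 0.12). Rora passed the threshold when Treg replicate 2 was left out (adjusted p = 0.0456).

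Most genes of the T cell receptor complex and its signalling were not called. Of 22 listed, 2 were called higher and 1 lower (3.38% and 1.37% over all genes), and the median log2 difference was 0.02. Cd5, which dampens T cell receptor signalling, was at 183, 194 and 161.9 RPKM in Tregs and 62.7 RPKM in CD8+ T cells, a log2 difference of 1.41 ± 0.28 (adjusted p = 0.00921). Trat1, encoding a T cell receptor-associated adaptor, was at 33.3, 41.1 and 41.9 RPKM against 8.66 RPKM, and Sla2, an inhibitory adaptor, was at 9.88, 13.4 and 10.1 RPKM against 21.9 RPKM. The calls of Trat1 and Sla2 were not stable, being lost when the library labelled Treg replicate 1 was left out (adjusted p = 0.0544 and 0.0653) and when replicate 3 was left out (0.0714 and 0.0822), and that of Trat1 also without replicate 2 (0.0522). Thy1, encoding the Thy-1 antigen, was at 64.0, 183 and 160 RPKM against 353 RPKM and was not called (adjusted p = 0.0788).

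The α chain was the only subunit of the IL-2 receptor whose level was called different at 0 h in edgeR. Of 19 genes of the receptor, JAK and STAT pathway, 4 were called higher in Tregs and 0 lower (3.38% and 1.37% over all genes), with a median log2 difference of 0.72. DESeq2 on all libraries called 5 of the 19. Il2ra was at 62.7, 117 and 91.5 RPKM in Tregs and 1.58 RPKM in CD8+ T cells, a log2 difference of 5.70 ± 0.54 (adjusted p = 3.47e-05). Il2rb was at 218, 306 and 222 RPKM against 122 RPKM, and was higher in every Treg library but not called (log2 difference 0.90 ± 0.33, adjusted p = 0.163). Il2rg was at 247, 257 and 269 RPKM against 266 RPKM, and the groups overlapped (-0.15 ± 0.39, adjusted p = 0.911). Whether the differences of the 3 subunits were themselves unequal was not tested. In the treated libraries Il2ra was at 90 to 282 RPKM in Tregs and 2.81 to 6.34 RPKM in CD8+ T cells. There edgeR also called Il2rb higher in Tregs (log2 difference 0.81, adjusted p = 0.00305), though its ranges overlapped. Il2rg was not called there (-0.17, adjusted p = 0.536).

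Of 4 feedback genes of STAT5, Cish and Socs2 were higher in Tregs that had received no cytokine, and Socs1 and Socs3 were not called. Cish, an inhibitor of cytokine signalling, was at 54.7, 65.5 and 54.0 RPKM in Tregs and 1.87 RPKM in CD8+ T cells, a log2 difference of 4.84 ± 0.36 (adjusted p = 2.4e-06). Socs2, of the same family, was at 6.51, 18.1 and 15.5 RPKM against 0.557 RPKM, a log2 difference of 4.43 ± 0.51 (adjusted p = 0.000173). Socs1 and Socs3 were at 10.3, 25.4 and 15.2 RPKM against 9.25 RPKM and 54.2, 50.4 and 81.7 RPKM against 34.01 RPKM. The 3 Treg libraries were all below the range of the treated Tregs for Cish, 85.9 to 262 RPKM, and for Socs2, 19.04 to 48.9 RPKM. For Stat5a and Stat5b, in contrast, the library labelled replicate 1 was above that range, which was 74.4 to 143 RPKM for Stat5a and 92.2 to 140 RPKM for Stat5b. Stat5b was at 142, 54.9 and 43.9 RPKM in Tregs and 28.1 RPKM in CD8+ T cells, and neither gene was called (adjusted p = 0.21 for Stat5a and 0.207 for Stat5b). Il9r, encoding the IL-9 receptor, was at 0.918, 4.57 and 2.15 RPKM against 0.132 RPKM, a log2 difference of 4.07 ± 0.94, or 3.45 without replicate 2. Il7r, a receptor of naive and memory cells, was at 56.6, 86.1 and 65.7 RPKM against 130 RPKM and was not called (adjusted p = 0.166).

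**Figure D4:**
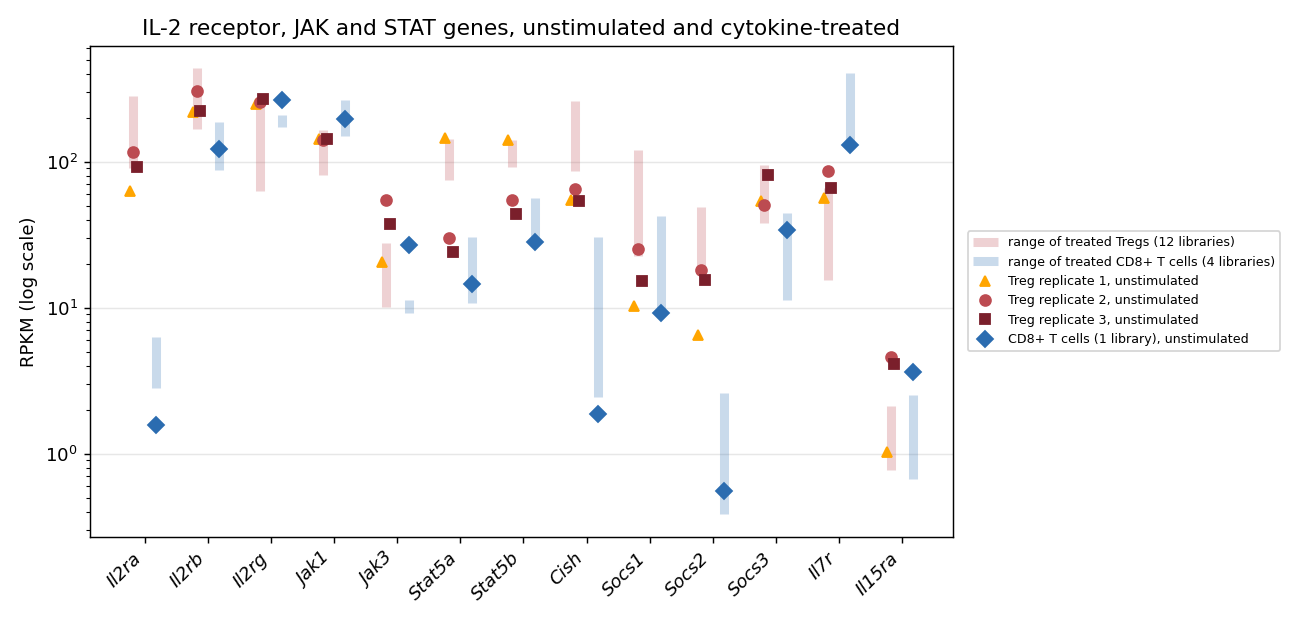
RPKM (log axis) of 13 genes of the IL-2 receptor, JAK and STAT pathway in the 4 unstimulated libraries (points), over bars that give the lowest to highest level in the treated libraries of each cell type. Il2ra, Cish and Socs2 are apart between the cell types, Il2rg overlaps, and for Stat5a and Stat5b the library labelled Treg replicate 1 sits with the treated Tregs.

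Receptors of the tumour necrosis factor family were in part higher in Tregs. Of 19 listed, 6 were called higher and 0 lower (3.38% and 1.37% over all genes), with a median log2 difference of 0.63. Tnfrsf4, encoding the co-stimulator OX40, was at 336, 123 and 81.1 RPKM in Tregs and 3.57 RPKM in CD8+ T cells, a log2 difference of 5.61 ± 0.90 (adjusted p = 0.00196). Tnfrsf18, encoding GITR, was at 274, 124 and 93.0 RPKM against 19.3 RPKM (3.03 ± 0.60), and Tnfrsf9, encoding 4-1BB, was at 271, 55.7 and 48.7 RPKM against 4.60 RPKM (4.75 ± 1.16). All 3 were highest in the library labelled replicate 1, without which the log2 differences were 4.63, 2.29 and 3.31, and still called. Tnfrsf1b, encoding TNF receptor 2, fell from 2.74 to 1.90 in the same way. Tnfrsf25, encoding DR3, was at 17.3, 30.4 and 19.6 RPKM against 5.01 RPKM (2.02 ± 0.32), and Tnfrsf8, encoding CD30, was at 2.21, 3.92 and 2.49 RPKM against 0.0413 RPKM (5.94 ± 0.87). Cd27, Tnfrsf1a and Tnfrsf14 were among the 13 not called.

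Among 31 genes of activation, tissue migration and adhesion, 5 were called higher in Tregs and 0 lower (3.38% and 1.37% over all genes), and the median log2 difference was 0.21. Besides Ccr8 and Itgb8, these were the chemokine receptor genes Ccr4 and Ccr6 and the selectin gene Selp. Ccr4 was at 18.6, 19.4 and 16.3 RPKM in Tregs and 0.374 RPKM in CD8+ T cells (log2 difference 5.48 ± 0.74), and Ccr6 was at 9.51, 12.4 and 10.5 RPKM against 0.389 RPKM (4.67 ± 0.64). Cxcr3, a receptor of both helper and cytotoxic cells, overlapped at 27.0, 22.2 and 19.7 RPKM against 22.2 RPKM. Cxcr6 and Ccr9 had lower values in Tregs, at 2.58, 4.93 and 2.38 RPKM against 15.3 RPKM and at 0.326, 5.07 and 3.34 RPKM against 12.6 RPKM, and were not called (adjusted p = 0.216 and 0.285).

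Most genes of the naive state were not called. Of 17 listed, 0 were called higher in Tregs and 3 lower (3.38% and 1.37% over all genes), with a median log2 difference of -1.02. Dapl1, a gene of naive and memory CD8+ T cells, was at 1.09, 9.12 and 10.1 RPKM in Tregs and 167.3 RPKM in CD8+ T cells, a log2 difference of -4.79 ± 0.89 (adjusted p = 0.00525). Lef1, a factor of naive T cells, was at 32.1, 43.3 and 49.97 RPKM against 102 RPKM (-1.40 ± 0.35, adjusted p = 0.0307), a call that was lost without Treg replicate 1 (0.0697) or 2 (0.0516). Txk, a Tec family kinase gene, was at 19.7, 24.0 and 18.8 RPKM against 43.5 RPKM (-1.18 ± 0.27). Tcf7, encoding TCF-1, was at 68.7, 187 and 160 RPKM against 378 RPKM and was not called (adjusted p = 0.0772). Ccr7, the lymph node homing receptor, was at 439, 77.8 and 101 RPKM against 153 RPKM (adjusted p = 0.87). Tcf7 was thus below the CD8+ T cells in every Treg library, while Ccr7 was above them only in the library labelled replicate 1.

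Immediate early genes were expressed in all 4 libraries and varied widely between Treg replicates. Of 26 listed, 2 were called higher in Tregs and 1 lower (3.38% and 1.37% over all genes), with a median log2 difference of 0.999. Rgs1, a regulator of chemokine receptor signalling, was at 203, 181 and 401 RPKM in Tregs and 32.8 RPKM in CD8+ T cells (log2 difference 2.91 ± 0.60), and Ier3 was at 0.886, 0.981 and 1.57 RPKM against 5.12 RPKM (-2.26 ± 0.48). Dusp1, a phosphatase gene, was at 221, 214 and 315 RPKM against 57.4 RPKM, and its call (adjusted p = 0.0474) was lost without Treg replicate 1 (0.0609) or 3 (0.0903). Fos was at 146, 132 and 341 RPKM in Tregs and 116 RPKM in CD8+ T cells, and was lower in the treated libraries of both, at 10.7 to 93.2 RPKM and 1.39 to 3.54 RPKM. Nr4a3 was at 222, 16.4 and 12.8 RPKM against 3.40 RPKM, so that the library labelled replicate 1 set its Treg mean.

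No gene of cell division or of MHC class I presentation was called in edgeR or DESeq2, and 0 had an unadjusted p under 0.05 in edgeR. The 20 cell cycle genes had a median log2 difference of 0.56, with Mki67 at 4.88, 16.8 and 10.8 RPKM in Tregs and 4.998 RPKM in CD8+ T cells. The 16 MHC class I genes had a median of 0.03, with B2m, encoding β2-microglobulin, at 1854, 1454 and 1646 RPKM against 1458 RPKM. Of 6 plasma cell genes tested, Prdm1 and Xbp1, which T cells also express, were called higher in Tregs (3.38% over all genes). Prdm1, encoding Blimp-1, was at 4.23, 5.13 and 5.40 RPKM against 1.02 RPKM (log2 difference 2.16 ± 0.44), and Xbp1 was at 52.2, 25.9 and 30.2 RPKM against 10.7 RPKM, a call that was lost without Treg replicate 3 (adjusted p = 0.0488 with it and 0.0536 without). Genes that separate sexes or substrains gave 0 calls among 7 tested, in edgeR and in DESeq2. Xist and Ddx3y differed between the Treg libraries themselves, as given above, so the test cannot decide whether the cell types differ in sex. Nnt, which differs between C57BL/6J and other C57BL/6 mice, was at 2.23, 5.75 and 5.39 RPKM in Tregs and 2.42 RPKM in CD8+ T cells.

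**Figure D5:**
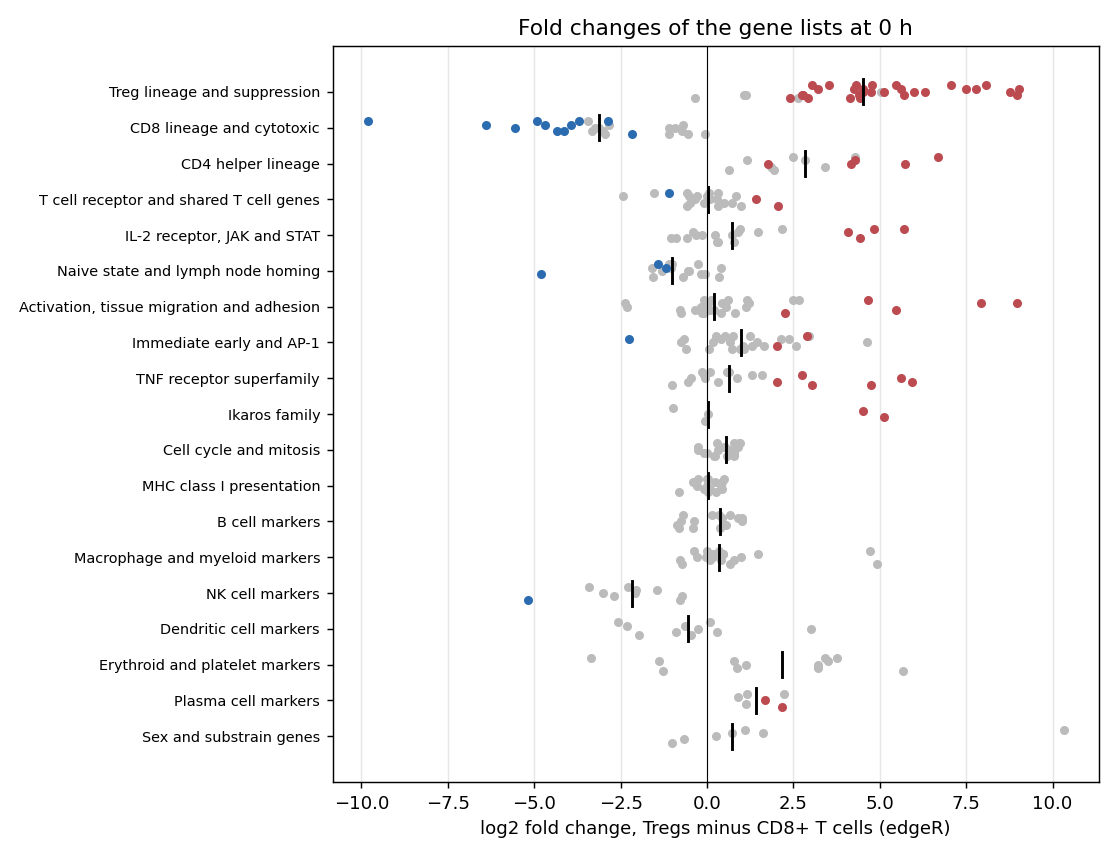
Log2 difference between unstimulated Tregs and CD8+ T cells (edgeR) for the tested genes of each list, with red points called higher in Tregs, blue points called lower, grey points not called and a black bar at the median of the list. The lists of Treg genes (median 4.52) and CD8 genes (median -3.11) lie apart, and those of the T cell receptor (0.02) and MHC class I (0.03) lie near 0.

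The most abundant transcripts were largely shared. The genes among the 10 highest in each cell type included Eef1a1, a translation elongation factor gene, at 3659, 4023 and 4304 RPKM in Tregs and 6994 RPKM in CD8+ T cells. Rpl12, a ribosomal protein gene, was at 1635, 1721 and 1870 RPKM against 3435 RPKM. For both, every Treg library was below the CD8+ T cells. Tmsb4x, H2-K1 and B2m were among the 10 highest in Tregs and not in CD8+ T cells.

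Nearly all differences had the same direction in the treated libraries. Those libraries did not enter the 0 h group means, but they did enter the estimate of spread, the filter and the scaling behind the 0 h calls, and their cells may come from the same isolations. Between 12 treated Treg and 4 treated CD8+ T cell libraries, 5322 of 16251 genes were called (32.7%), 2661 higher in Tregs and 2661 lower (16.4% each). Of the 555 genes higher at 0 h, 553 kept their direction, 544 were called in it and 510 (91.9%) had no overlap between the treated libraries, against 10.2% of all genes tested at 0 h. Of the 225 lower genes, 224 kept their direction, 220 were called in it and 185 (82.2%) had no overlap, against 5.41%. The exceptions, named here for that reason after their values were seen, were Ndrg4 and Pgpep1l, higher in Tregs at 0 h and with values of -0.15 and -0.30 that were not called after treatment, and Gpsm2. Gpsm2, a regulator of spindle orientation, was lower in Tregs at 0 h (log2 difference -1.12, adjusted p = 0.032) and higher after treatment (0.995, adjusted p = 0.000555), but its call at 0 h was lost whichever Treg library was left out (adjusted p = 0.0573 to 0.105). A test of the change itself, the difference at 0 h minus that after treatment, called 0 of 16399 genes in edgeR, with 448 at an unadjusted p under 0.05. For Ikzf4 that change was 1.83 (adjusted p = 0.106), with 2.63 to 9.29 RPKM in treated CD8+ T cells against 0.578 RPKM at 0 h, and for Fosb it was -4.85 (adjusted p = 0.294).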

How the data were processed

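The files hold, for 31682 RefSeq transcripts in each of 20 mouse RNA-seq libraries, the number of reads and the RPKM. The deposited read counts and the deposited RPKM values (reads per kilobase, scaled to mapped reads) were made by the authors from uniquely mapped single-end reads aligned to mm10 with TopHat2 2.1.1 and Bowtie2 2.2.6, with SAMtools 0.1.8, bedtools 2.25.0 and edgeR named in the submitters' processing notes; the strand setting is not given in the sources used here. For each of 23992 gene symbols 1 transcript was kept, that with the largest read total in the series. Counts were fitted with edgeR 4.0.16 (R 4.3.3; TMM scaling, filterByExpr, quasi-likelihood F test) on all 20 libraries with 10 group means, and Benjamini-Hochberg adjusted p-values under 0.05 over all tested genes were called. SE is the log2 difference divided by the square root of F. The fold rule used RPKM + 1. limma 3.58.1 and DESeq2 1.42.0 were alternatives. The edgeR fit was tried on simulated counts in which some genes were changed at 0 h. It recovered 0% of 94 genes with a log2 change of 1 and 27.6% of 98 with a change of 2. Of its 30 calls, 10% were false. Genes are named where they are in 1 of 19 gene lists (313 genes), among the 15 largest differences in each direction with at least 5 RPKM in the higher cell type and all 3 Treg libraries on 1 side, or among the 10 highest levels; other genes are said to be chosen afterwards. The comparison, the lists and the motifs were chosen with earlier results of these data known. Coordinates and promoter windows are RefSeq's, GRCm38.p6. Some genes that the rule names are not reported here.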

Additional observations from a re-analysis of the deposited data

How the results depend on the processing

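The 780 genes called at 0 h became 1344 (939 higher, 405 lower) with DESeq2 on all libraries, and with edgeR and with limma on log2(RPKM + 1) fitted to the 4 unstimulated libraries alone, the latter chosen after seeing the data, 0 and 38 (15 higher, 23 lower). With 4 libraries the spread rests on 3 Treg libraries, of which replicate 1 stood apart. Requiring also a log2 difference above 1 gave 770 genes, against 1231 with DESeq2, 476 (300 higher, 176 lower) with limma on log2(RPKM + 1), and 0 and 38 on the 4 libraries alone. limma on all libraries called 663 genes, of which 352 were higher and 311 lower, a more even split than 555 and 225, whereas with log2(RPKM + 0.1) it called 670, of which 477 were higher and 193 lower, so the even split went with the pseudocount of 1. The 609 genes past 2-fold became 1320 with a pseudocount of 0.1 RPKM and 151 when a log2 ratio above 2 was required. Leaving out each Treg replicate gave 641 to 795, 640 to 775 and 729 to 820 genes for these 3 counts, and 3840 to 5090 for the 5322 genes called between treated cells. Without replicate 1 of every Treg group, also added after seeing the data, 1043 genes were called. DESeq2 called 10, 6, 6, 8 and 5 genes of the CD4 helper, T cell receptor, immediate early, migration and naive lists, where edgeR called 5, 3, 3, 5 and 3. Over 328 named genes and all alternatives, 4294 of 4555 values kept their direction and side of the threshold, 183 lost a call, 78 gained one and 0 reversed a called direction. No paired analysis was possible because the unstimulated Tregs and CD8+ T cells share only replicate number 1. Genes with under 3 reads in a cell type, and any gene whose spread in CD8+ T cells exceeds that of Tregs, are beyond what 1 CD8+ T cell library can resolve.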
